A study of Mus musculus with 10 samples.

Results

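The genes of the proteasome and of its caps, assembly factors and inhibitor were followed through single-cell RNA counts of mouse phagocytes. Members were all genes in the feature lists of both datasets whose symbol starts with Psma, Psmb, Psmc, Psmd, Psme, Psmf or Psmg and a number, which gave 50 of 32285 genes. Of these, 49 code for proteasome subunits, regulators or assembly factors, and 1, Psmc3ip, shares only the start of its name. The cells were LysoDCs (lysozyme-expressing dendritic cells of monocyte origin) and cDC2s (conventional type 2 dendritic cells) from Peyer's patches, the lymphoid follicles of the gut wall, and blood cells with high CD115. All donors were female C57BL/6Rj mice without a transgene named in the labels. Peyer's patch donors were untreated, while every blood donor had received clodronate-loaded liposomes, which deplete phagocytes, 9 days earlier, so tissue and treatment cannot be told apart in comparisons of LysoDCs with blood cells.

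Dataset 1 pooled Peyer's patches of 30 mice and blood of 20 mice, and its hashtags, antibody-borne barcodes, marked 9 sorted populations: follicular, immature, intermediate and mature LysoDCs, immature and maturing cDC2s, Ly6C+ monocytes, CD43+ monocytes, and blood cells negative for both Ly6C and CD43 (DN cells). Dataset 2 pooled 20 and 18 other mice, and its hashtags marked LysoDCs as a whole, DN cells (CCR2+ and CCR2- cells under 1 hashtag), Ly6C+ monocytes and CD43+ monocytes. Each population was therefore measured as 1 pool of mice per dataset, and n below counts these pools. The sample titles of dataset 2 place CD43+ monocytes, Ly6C+ monocytes, CCR2+ DN cells and CCR2- DN cells in separate libraries. Each title also names a LysoDC gate, which the hashtags do not mark. The part of these libraries in differences between populations was not tested.

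Proteasomes degrade proteins that carry ubiquitin chains. The 20S core is a stack of alpha and beta rings, and its proteolytic sites lie in the beta subunits encoded by Psmb5, Psmb6 and Psmb7, which interferon-induced Psmb8, Psmb9 and Psmb10 replace in the immunoproteasome. The 19S cap, of Psmc ATPases and Psmd subunits, binds and unfolds substrates, the PA28 and PA200 caps (Psme genes) open the core without ubiquitin, and peptides cut by proteasomes are the main source of ligands for MHC class I.

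After filtering, 7217 cells of dataset 1 and 7470 of dataset 2 were used. Median depth per cell was 10551 to 14279 UMIs (unique molecular identifiers, 1 per captured RNA molecule) in the LysoDC gates, 7387.5 and 7480 in the cDC2 gates and 2312 to 5920 in the blood populations. Only 681 LysoDCs of dataset 2 kept a single hashtag call, 4 of them on 1 of its 4 hashtags. Summed markers followed the labels for both monocyte populations. Ly6C+ monocyte markers were 4191 and 3474 CPM (UMIs per 1000000 gene UMIs of the population) in Ly6C+ monocytes, and the CD43+ monocyte markers 2499 and 2514 CPM in CD43+ monocytes. The cDC2 markers did not, at 852 CPM in immature cDC2s, 741 CPM in mature LysoDCs and 1211 and 1743 CPM in DN cells. Maturing DC markers were at 810 CPM in maturing cDC2s, 607 CPM in immature cDC2s and 654 to 774 CPM in the LysoDC gates. Cd209a, Clec10a and Irf4, listed for cDC2s, went against that label, at 15.1, 14.5 and 25.0 CPM in immature cDC2s and 489, 430 and 49.0 CPM in DN cells of dataset 1. The other cDC2 markers, Flt3, Zbtb46, Kit, Dpp4 and Itgax, were higher in immature cDC2s, with Kit at 117 against 2.87 CPM and Flt3 at 104 against 47.7 CPM. B cell markers summed to 215 and 203 CPM in LysoDCs and 20.6 to 54.7 CPM in blood populations, and cell cycle genes to 214 and 209 against 8.08 to 29.1 CPM. Their part in the results was not tested. Cell barcodes shared by the datasets numbered 13 among the cells used.

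Promoter windows of 300 bases (250 before to 50 after a RefSeq start, GRCm38.p6) were found for 42 members, 45 windows in all, and the stretches shown belong to the constitutive catalytic genes Psmb5 and Psmb6, to Psmb10 of the immunoproteasome, and to Psma7, Psmd8 and Psmd10, which passed the test between LysoDCs and monocytes. Each is given 5′ to 3′ on the gene's strand, outside annotated exons, with matches on either strand to TGACNNNGC (the core of an antioxidant response element) or CCAAT (read as ATTGG on the other strand) in capitals.
Psmb5, chr14:54618023-54618122, minus strand: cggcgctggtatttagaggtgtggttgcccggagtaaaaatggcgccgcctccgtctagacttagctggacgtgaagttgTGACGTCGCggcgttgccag
Psmb6, chr11:70525257-70525356, plus strand: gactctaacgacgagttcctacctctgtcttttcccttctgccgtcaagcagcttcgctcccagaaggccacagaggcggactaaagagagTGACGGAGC
Psmb10, chr8:105938445-105938544, minus strand: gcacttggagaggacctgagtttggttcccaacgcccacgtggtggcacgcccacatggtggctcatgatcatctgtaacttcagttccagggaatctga
Psma7, chr2:180042465-180042508, minus strand: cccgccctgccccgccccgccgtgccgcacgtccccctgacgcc
Psmd8, chr7:29180702-29180801, minus strand: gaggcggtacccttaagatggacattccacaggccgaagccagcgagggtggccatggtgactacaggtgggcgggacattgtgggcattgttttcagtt
Psmd10, chrX:140956729-140956828, minus strand: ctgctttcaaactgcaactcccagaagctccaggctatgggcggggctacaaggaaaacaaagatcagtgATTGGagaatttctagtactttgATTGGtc

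TGACNNNGC lay in 6 of the 45 windows (13.3%, against 12.4% of 32851 windows of all genes), those of Psmb5, Psmb6, Psmc6, Psmd9, Psmd12 and Psme4. CCAAT lay in 15 windows (33.3% against 37.4%). Upstream of Psmd10 it matched 3 times, 2 of them in the stretch shown. The core of an interferon-stimulated response element, read as GAAA, any 2 bases and GAAA on either strand, lay in 5 windows (11.1% against 3.44%), those of Psmb3, Psmd4, Psmd9, Psme1 and Psmg4. The windows of Psmb8, Psmb9 and Psmb10 held no match to it. Psmb9 (chr17:34181987-34187764, minus strand) and Psmb8 (chr17:34197721-34201454, plus strand) flank the peptide transporter gene Tap1 (chr17:34187553-34197225, plus strand) in the MHC region, in GENCODE M21 coordinates on GRCm38, and the annotated Psmb9 and Tap1 genes overlap by 212 bases on opposite strands.

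Most proteasome genes ranged less over these cells than the median gene. The 8 sums were LysoDCs, Ly6C+ monocytes, CD43+ monocytes and DN cells in the 2 datasets. Over them, the highest CPM of a member exceeded its lowest by a median factor of 1.66. That median covers the 47 members with a mean of at least 5 CPM, and for the 8812 genes past that floor it was 2.43. Genes were not matched by level above the floor, and the part of level in this difference was not tested. The range stayed under 2-fold in 38 of the 47 members (80.9%) and in 32.1% of all genes. Psmd9, a chaperone of 19S base assembly, was the steadiest at 21.5 to 24.4 CPM, and Psmd12, a lid subunit, ranged from 67.0 to 82.6 CPM. The widest ranges were those of Psme2b (3.54-fold) and Psma7 (3.35-fold). Psme2b is a near-identical copy of Psme2, so its counts are uncertain. Psma7 ranged from 261 CPM in LysoDCs of dataset 2 to 875 CPM in Ly6C+ monocytes of dataset 1, a wider range than that of 69% of all genes.

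**Figure D1:**
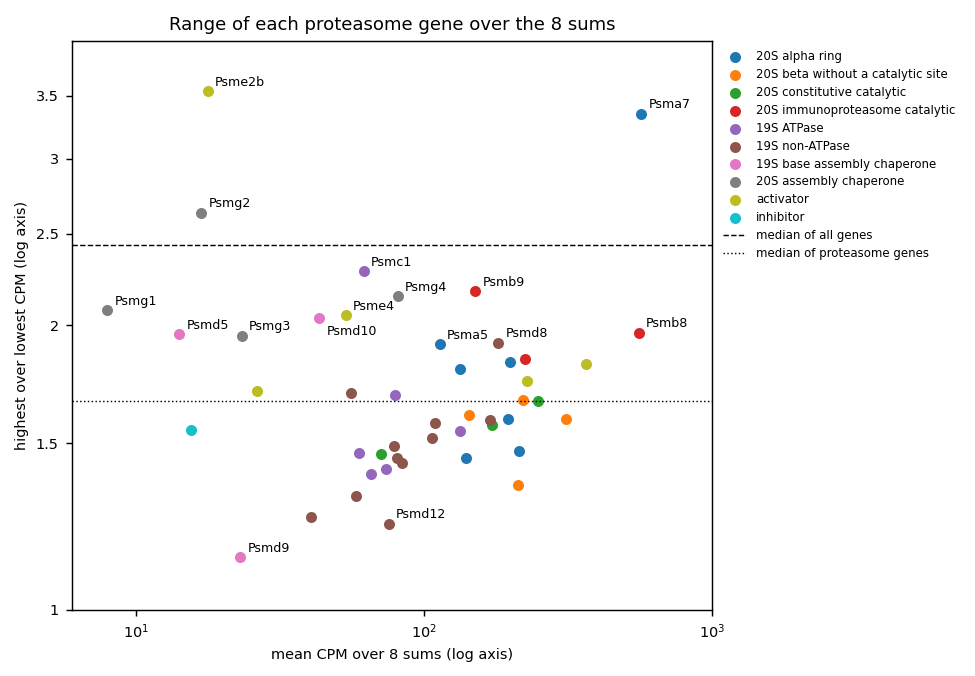
Each point is 1 of 47 proteasome genes, coloured by role; the x axis is the mean CPM over 8 sums and the y axis the highest over the lowest CPM, both on log axes. Most points lie below the dashed line, the median of all genes at 2.43, and Psme2b, Psma7 and Psmg2 lie above it.

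Averaged over the 2 datasets, Ly6C+ monocytes held the highest level of the 4 populations for 25 of 47 members and CD43+ monocytes the lowest level for 24. The matching shares over all genes were not counted. Summed over all members, the level was 7335 and 7146 CPM in Ly6C+ monocytes, 6588 and 6388 CPM in DN cells, 6077 and 5153 CPM in CD43+ monocytes and 6191 and 5548 CPM in LysoDCs, datasets 1 and 2. Ly6C+ monocytes were thus above the other 3 populations in each dataset, and CD43+ monocytes below them. The cDC2 gates, sorted in dataset 1 only, were at 7177 CPM (immature) and 7505 CPM (maturing). Psmb11, the catalytic subunit of the thymoproteasome, was at or under 0.415 CPM in each sum and was too low to test. Psma8, the alpha subunit of the testis, stayed at or under 2.78 CPM in the 8 sums.

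CD43+ monocytes, which patrol blood vessels and derive from Ly6C+ monocytes, carried less RNA of the 20S core. Against Ly6C+ monocytes, 24 of 49 members tested fell and 25 did not pass (edgeR's quasi-likelihood test, dataset as a block, Benjamini-Hochberg adjusted p under 0.05), while 14.5% of all genes tested fell. No member rose, against 13.5% of all genes, where 2 members were higher at an unadjusted p under 0.05 and DESeq2 also called 0. In either direction 27.9% of all genes passed. The median difference of the members was -0.53 on the log2 scale, against 0.01 for all genes. By role, 5 of 8 alpha subunits, all 4 beta subunits without a catalytic site, 2 of 3 constitutive and all 3 immunoproteasome catalytic subunits fell, and 4 of 6 ATPases. Of the other 19S subunits, 2 of 11 fell.

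Psmg4, a chaperone of alpha ring assembly, was at 59.4 and 52.4 CPM in CD43+ monocytes and at 93.7 and 112 CPM in Ly6C+ monocytes. The fitted difference was -1.08 ± 0.17 (SE, n = 2 datasets, adjusted p = 0.00123), and the values did not overlap. Psma4 was at 154 and 148 against 254 and 266 CPM, a difference of -0.99 ± 0.16 (adjusted p = 0.00123). Psma7 was at 557 and 479 against 875 and 821 CPM, -0.92 ± 0.15 (adjusted p = 0.00147), and Psma5 fell by 0.87 (adjusted p = 0.00655). For all 3 alpha subunits both CD43+ pools were below both Ly6C+ pools. Psmd8, a lid subunit, was at 186 and 133 against 230 and 240 CPM and fell by 0.78 (adjusted p = 0.00708).

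Psmb10, which supplies the trypsin-like site of the immunoproteasome, was at 200 and 155 CPM in CD43+ monocytes and at 286 and 259 CPM in Ly6C+ monocytes, a difference of -0.83 ± 0.14 (adjusted p = 0.00191). Psmb9, the caspase-like site's replacement, was at 142 and 79.0 against 170 and 171 CPM and fell by 0.87 (adjusted p = 0.0181). Psmb8, the replacement of Psmb5, was at 483 and 341 against 611 and 559 CPM and fell by 0.72 (adjusted p = 0.0106). All 3 were lower in both datasets, with the lower CD43+ value in dataset 2. Psmb6 and Psmb7 fell by 0.63 and 0.56, while Psmb5, at 289 and 230 against 283 and 241 CPM, did not pass (-0.23 ± 0.16, adjusted p = 0.323). Psme1 and Psme2, which form PA28 with the immunoproteasome, fell by 0.65 (adjusted p = 0.0116) and 0.56 (adjusted p = 0.0229). The nuclear cap gene Psme3, the PA200 gene Psme4, Psme2b and the inhibitor gene Psmf1 did not pass, at 0.03 to 0.44.

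Partner genes outside the family, 23 of them measured, moved in both directions in the same comparison, and 5 rose. The stress regulators Nfe2l1 and Nfe2l2, transcription factors that act on proteasome and antioxidant genes, rose by 0.84 (adjusted p = 0.00159) and 1.06 (adjusted p = 0.0153), from 53.9 and 33.3 to 96.7 and 79.0 CPM for Nfe2l1. Zfand5, which binds and activates the 26S proteasome, rose by 0.96 (adjusted p = 0.000488), as did Ecpas, a scaffold of proteasomes, by 0.64. Sem1, a 19S subunit outside the naming scheme, fell by 0.93 (adjusted p = 0.00602), and the core assembly factor Pomp by 0.56 (adjusted p = 0.0229).

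The fit scales libraries by TMM, which set CD43+ monocytes apart (factors 1.144 and 1.117, against 1.035 and 0.931 in Ly6C+ monocytes). Scaling by total UMIs moved the median of all genes to 0.21 and left 14 members lower and 1 higher, and leaving out Ly6C+ monocytes or CD43+ monocytes of dataset 2 left 4 members lower each. Erythroid markers summed to 269 CPM in CD43+ monocytes of dataset 2, 18.3 CPM in those of dataset 1 and 3.16 and 0.385 CPM in Ly6C+ monocytes, and to 282 and 0.695 CPM in DN cells, and their part in the results was not tested. Psma4, Psma7, Psmb10 and Psmg4 passed in all 13 alternatives.

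**Figure D2:**
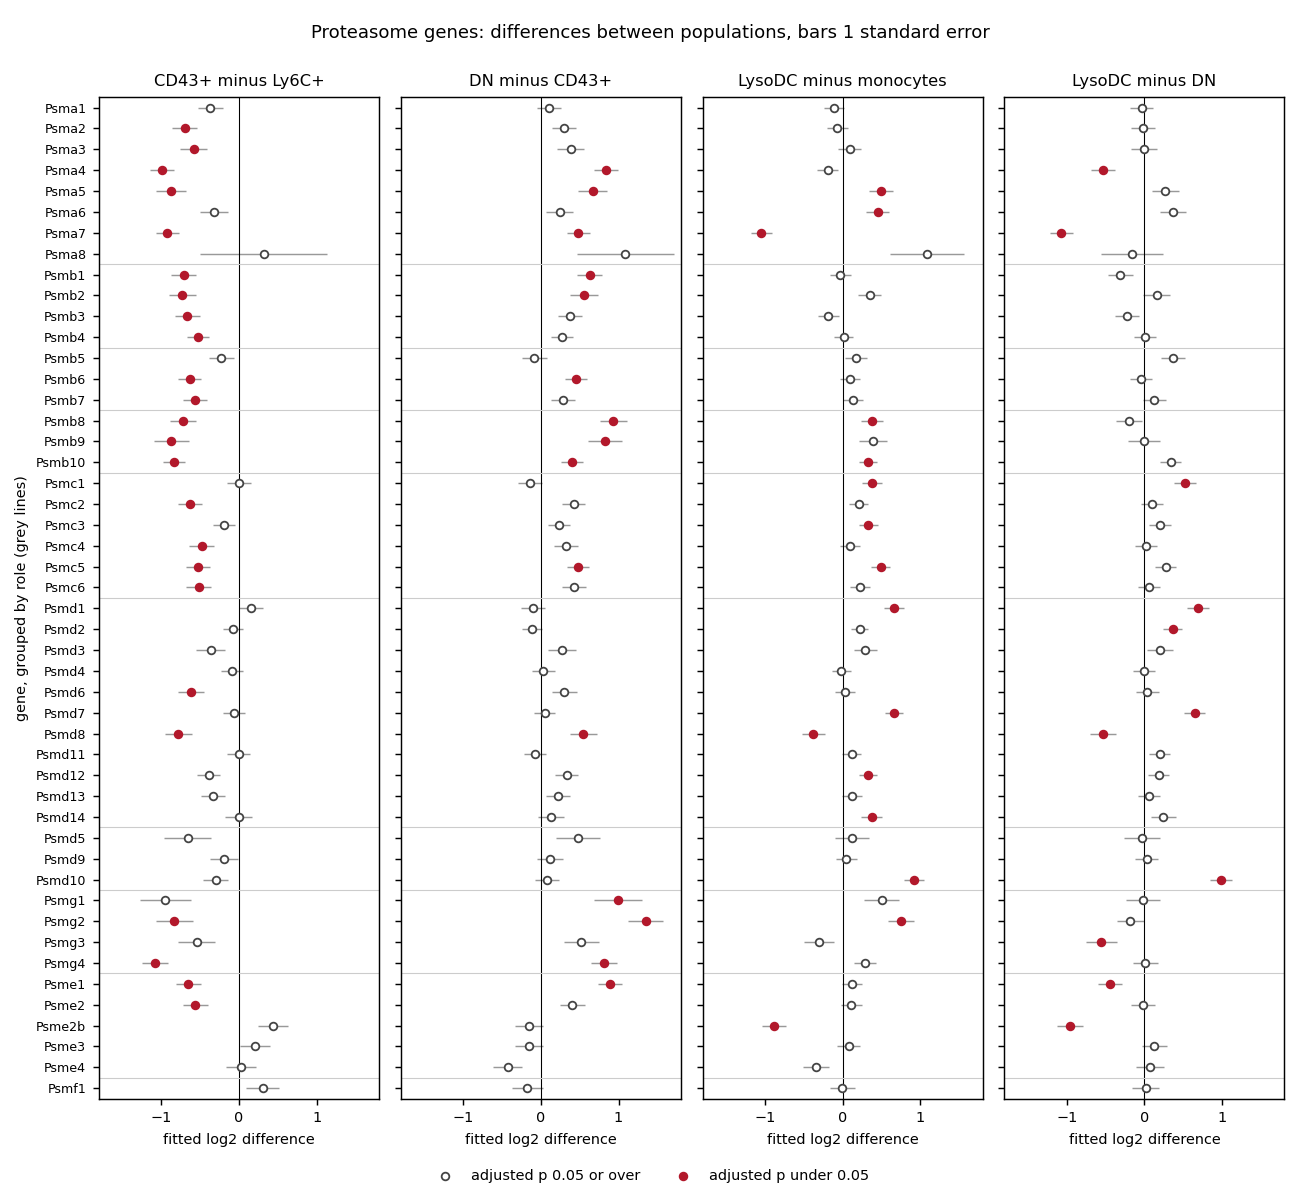
Fitted log2 differences of 48 proteasome genes (rows, grouped by role) in 4 comparisons (panels), with bars of 1 standard error; filled points have an adjusted p under 0.05. In the first panel every core gene but Psma8 lies left of 0, and in the third Psma7 lies near -1 and Psmd10 near 0.9.

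DN cells, which the clodronate treatment served to increase and which the study held as candidate precursors, differed from Ly6C+ monocytes by the test in 1 member. Of 49 members 1 rose, against 7.37% of all genes, and it was Psmc3ip, at 2.22 and 1.703 CPM against 0.243 and 0.385 CPM (adjusted p = 0.0329), which is not a proteasome gene. By edgeR 0 members fell, against 7.39% of all genes. At an unadjusted p under 0.05, 3 were lower, and DESeq2 called 2 lower and 0 higher. In either direction 14.8% of all genes passed. Psmc3ip had only 1 and 2 UMIs in the Ly6C+ pools of datasets 1 and 2. Its call was lost by DESeq2, by dominant hashtag, without either Ly6C+ pool or without DN cells of dataset 2. The members that did not pass lay between -0.44 and 1.41, and the median was -0.11. Psmb10 came closest, at 219 and 183 CPM in DN cells and 286 and 259 CPM in Ly6C+ monocytes (-0.43 ± 0.14, adjusted p = 0.0655). Among partner genes Sem1 fell, at 542 and 472 against 851 and 1049 CPM (-0.91, adjusted p = 0.0124), and the 9 class I presentation genes did not pass.

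DN cells had more of several of these RNAs than CD43+ monocytes. Of 49 members 15 rose, against 17.1% of all genes, and 34 did not pass. By edgeR 0 members fell, against 16.2% of all genes, with 1 lower at an unadjusted p under 0.05 and 0 by DESeq2. All 3 immunoproteasome subunits rose, as did 3 of 4 chaperones of the 20S core, 3 of 8 alpha subunits, 2 of 4 beta subunits without a catalytic site, Psmb6, Psme1, the ATPase gene Psmc5 and 1 of 11 other 19S subunits, Psmd8. In either direction 33.3% of all genes passed. This comparison shares CD43+ monocytes with the one above.

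Psmb8 was at 670 and 668 CPM in DN cells against 483 and 341 CPM in CD43+ monocytes, a difference of 0.93 ± 0.17 (adjusted p = 0.00209). Both DN pools were above both CD43+ pools, and also above both Ly6C+ pools (611 and 559 CPM), where the difference did not pass (0.22 ± 0.17, adjusted p = 0.439). Psmb9 rose by 0.83 (adjusted p = 0.0184), from 142 and 79.0 to 169 and 160 CPM, and Psmb10 by 0.41 (adjusted p = 0.0488), a call kept in 3 of 13 alternatives and lost without any one of the 4 sums, with differences of 0.19 to 0.53. Psme1 was at 432 and 481 against 310 and 264 CPM and rose by 0.89 (adjusted p = 0.00165). Psmg2, which pairs with Psmg1 in starting the alpha ring, was at 21.0 and 24.0 against 9.13 and 11.6 CPM, 2.55-fold (adjusted p = 0.00114). Psmg4 rose by 0.81 and Psmg1 by 0.99, the latter from 5.81 and 5.01 CPM. Psma4 rose by 0.84 (adjusted p = 0.00235), Psma5 by 0.67, Psma7 by 0.48 and Psmb6 by 0.45.

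Of 23 partner genes, 5 fell and 18 did not pass. Nfe2l2 was at 125 and 84.9 CPM in DN cells against 327 and 433 CPM (-1.64 ± 0.25, adjusted p = 0.00184), and Zfand5, Nfe2l1 and Ecpas fell by 0.97, 0.69 and 0.69. Tap1 rose by 0.70 (adjusted p = 0.00855), while B2m, the light chain of MHC class I, fell by 0.65 (adjusted p = 0.0223). Scaled by total UMIs, 7 members rose (median of all genes -0.21), and 3 rose without CD43+ monocytes of dataset 2, 5 without DN cells of dataset 2 and 9 without CD43+ monocytes of dataset 1. Psma4, Psme1 and Psmg2 passed in all 13 alternatives.

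LysoDCs and blood monocytes differed in single subunits more than in the family. Against the mean of Ly6C+ and CD43+ monocytes, 14 of 49 members rose and 3 fell, while 29.9% of all genes tested rose and 27.4% fell. The share of members called in either direction was 34.7%, against 57.3% of all genes and 57.4% of genes within the members' range of levels. That range, 1.63 to 567 CPM, held 10448 of the 11458 genes tested, so the last share hardly differs from that of all genes by construction. The median size of a difference, leaving out its sign, was 0.29 on the log2 scale for members and 0.61 for all genes. Rises came from the 19S cap (3 of 6 ATPases, 4 of 11 other subunits), with 2 alpha subunits, Psmb8, Psmb10, Psmd10, Psmg2 and the unrelated Psmc3ip.

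Psma7, an alpha ring subunit, had the lowest fitted difference of the members. Its level in the LysoDC gates of dataset 1 was 267 CPM (follicular), 318 CPM (immature), 321 CPM (intermediate) and 285 CPM (mature), and LysoDCs of dataset 2 were at 261 CPM. The cDC2 gates held 370 and 424 CPM, CD43+ monocytes 557 and 479 CPM, DN cells 658 and 584 CPM and Ly6C+ monocytes 875 and 821 CPM. The groups did not overlap, in the order LysoDCs, cDC2s, CD43+ monocytes, DN cells and Ly6C+ monocytes, though CD43+ monocytes of dataset 1 and DN cells of dataset 2 were close. The fitted difference of LysoDCs from monocytes was -1.04 ± 0.14 (SE, n = 2 datasets, adjusted p = 7.63e-05), 2.06-fold lower, and from DN cells -1.07 ± 0.15 (adjusted p = 0.000157). Both comparisons use the same LysoDC sums. Against the monocyte mean the other alpha subunits did not share this. Psma5 rose by 0.49 (adjusted p = 0.0172) and Psma6 by 0.45 (adjusted p = 0.0208), and Psma1, Psma2, Psma3 and Psma4 did not pass. Psma4 did fall against DN cells (-0.53). At 159 and 145 CPM in LysoDCs it was below Ly6C+ monocytes (254 and 266 CPM) and near CD43+ monocytes (154 and 148 CPM). Psma5 was at 133 and 124 CPM in LysoDCs, 113 and 149 CPM in Ly6C+ and 86.7 and 78.2 CPM in CD43+ monocytes. In dataset 2 it was thus lower in LysoDCs than in Ly6C+ monocytes. Psma5 and Psma6 were called in 10 of 15 alternatives each, with lowest differences of 0.22 and 0.01, and lost the call among cells of 2000 to 8000 UMIs, by total UMIs, and without LysoDCs of dataset 1, Ly6C+ monocytes of dataset 1 or CD43+ monocytes of dataset 2.

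Psmd10 (gankyrin, a chaperone of 19S base assembly) was at 65.5 and 61.6 CPM in LysoDCs, 38.3 and 40.4 CPM in Ly6C+ and 38.2 and 35.8 CPM in CD43+ monocytes, and 35.1 and 32.2 CPM in DN cells. Both LysoDC pools were above all 6 blood pools. It rose by 0.92 ± 0.12 against monocytes (adjusted p = 0.000104) and by 0.99 against DN cells (adjusted p = 0.000177). Psmd7, a lid subunit, was at 144 and 136 CPM in LysoDCs and 91.8 to 107 CPM in the blood pools, and rose by 0.66 ± 0.11 (adjusted p = 0.00054) against monocytes. Psmd1, the large scaffold of the base, was at 69.9 and 73.7 CPM against 43.4 to 67.8 CPM in blood and rose by 0.66 (adjusted p = 0.000972). For these 2 genes too the LysoDC pools were above each blood pool. Immature cDC2s of the same tissue were close to immature LysoDCs. They were at 56.0 against 61.3 CPM for Psmd10, 135 against 150 CPM for Psmd7 and 63.3 against 69.7 CPM for Psmd1. For Psmd10 and Psmd7 they too were above each blood pool, so these higher levels were not particular to LysoDCs. Psmd8 went the other way, at 137 and 125 CPM in LysoDCs against 230 and 240 CPM in Ly6C+ and 186 and 133 CPM in CD43+ monocytes (-0.38 ± 0.15, adjusted p = 0.0463), where LysoDCs and CD43+ monocytes overlapped. Of the ATPases, Psmc5 rose by 0.49 (adjusted p = 0.00511), Psmc1 by 0.38 and Psmc3 by 0.33. Psmc5 was called in 13 of 15 alternatives, Psmc1 in 8 (0.19 to 0.48) and Psmc3 in 6 (0.14 to 0.40). Psmd8 was called in 6 of 15 (-0.79 to -0.25). Psmc1 and Psmc3 lost the call without the block, among cells of 2000 to 8000 UMIs and by total UMIs, among others. Psmd8 lost it by DESeq2, without the filter and without the block, among others.

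Psmb8 was at 571 and 548 CPM in LysoDCs and rose by 0.38 ± 0.14 (adjusted p = 0.0439), and Psmb10 at 248 and 236 CPM rose by 0.33 ± 0.12 (adjusted p = 0.0368). Both lay between the Ly6C+ and the CD43+ monocyte values in each dataset. Psmb8 was called in 6 of 15 alternatives (0.09 to 0.50) and Psmb10 in 8 of 15 (0.15 to 0.39), and both lost the call without the block, among cells of 2000 to 8000 UMIs, by total UMIs, and without LysoDCs of either dataset, Ly6C+ monocytes of dataset 1 or CD43+ monocytes of dataset 2. Psmb8 also lost it by dominant hashtag and without Ly6C+ monocytes of dataset 2. Psmb9 (0.39 ± 0.18, adjusted p = 0.0931), Psmb5, Psmb6, Psmb7, Psme1, Psme2, Psme3, Psme4 and Psmf1 did not pass. Psmg2 rose by 0.75 (adjusted p = 0.00325), and Psme2b fell by 0.88 (adjusted p = 0.000693).

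Partner genes moved in both directions, 6 up and 6 down of 23. Nfe2l1 was at 146 and 114 CPM in LysoDCs against 75.3 and 56.1 CPM over the monocytes (1.27 ± 0.11, adjusted p = 3.56e-06). The deubiquitinase Usp14 rose by 0.98 (adjusted p = 6.66e-05), the segregase Vcp by 0.84 (adjusted p = 9.68e-05) and the ubiquitin gene Ubb by 0.47 (adjusted p = 0.00783). Ddi2, the protease that activates the Nfe2l1 protein, fell by 0.55 (adjusted p = 0.00269), as did Ubqln4 by 0.90, Ubqln2 by 0.56 and Pomp by 0.45. Of 9 class I genes, 6 rose and 0 fell: Tapbp (0.98, adjusted p = 7.25e-05), the class I transactivator Nlrc5 (1.28, adjusted p = 0.00053), Tap1 (0.67, adjusted p = 0.00169), B2m (0.60, adjusted p = 0.00761), Erap1 and Tap2.

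Depth and scaling moved this count. Among cells of 2000 to 8000 UMIs, 3 members rose, 8 fell and the members' median was -0.08, where it was 0.14 over all cells, and by total UMIs 6 rose and 8 fell with a median of all genes of -0.18. Leaving out LysoDCs of dataset 1 left 4 higher, Ly6C+ monocytes of dataset 1 6 and CD43+ monocytes of dataset 2 7, but Psma7, Psmd7, Psmd10 and Psme2b passed in all 15 alternatives.

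**Figure D3:**
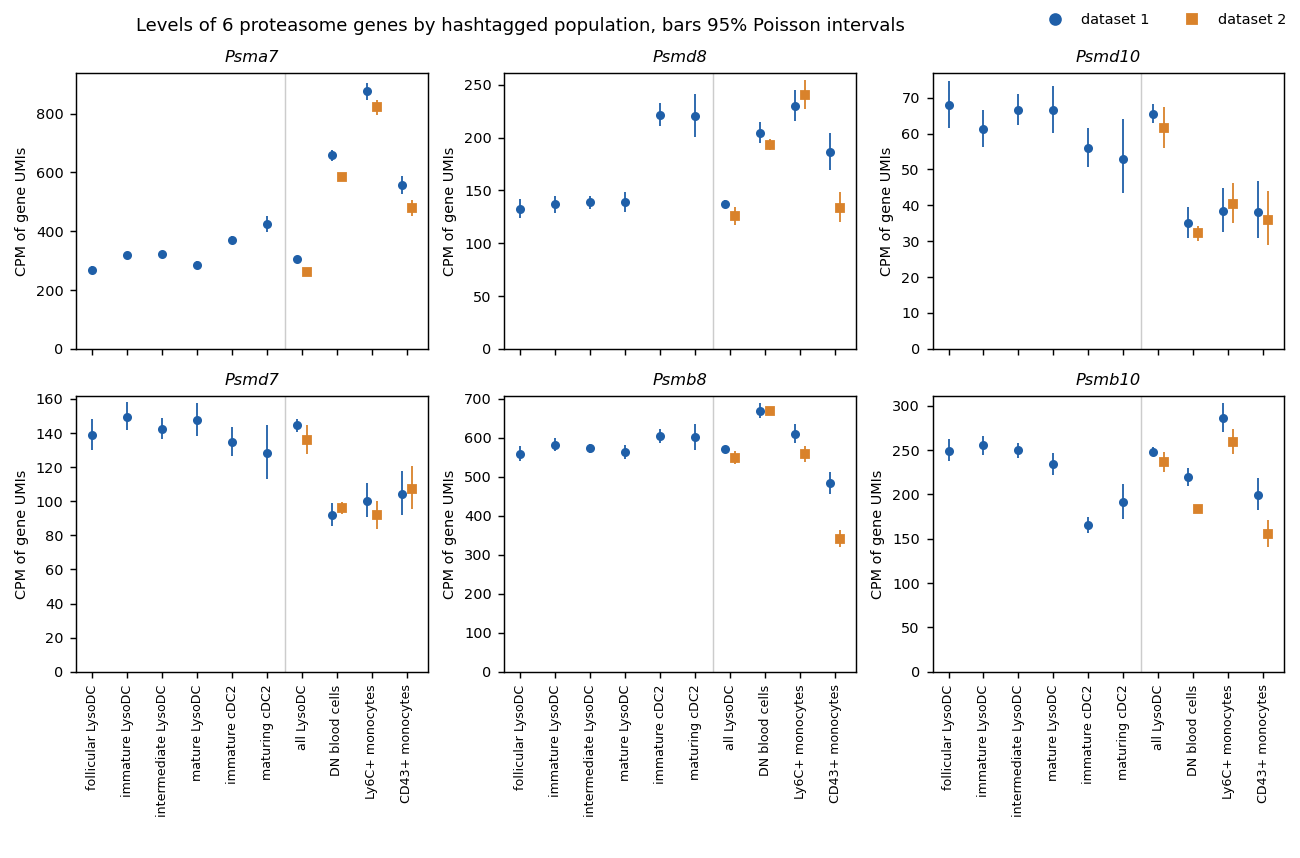
Levels of 6 proteasome genes in CPM (y axes from 0), with 95% Poisson intervals, by hashtagged population; circles are dataset 1, squares dataset 2, and the grey line separates the gates of dataset 1 from populations measured in both. Psma7 is lowest in LysoDCs (267 to 321 CPM in the 4 gates, 261 CPM in dataset 2) and highest in Ly6C+ monocytes (875 and 821 CPM), and Psmd10 and Psmd7 are higher in LysoDCs than in blood cells.

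Against DN cells alone, 5 of 49 members rose in LysoDCs and 6 fell, while 26% of all genes rose, 26.1% fell and 52.1% passed in either direction. Psmd10, Psmd7, Psmd1, Psmc1 and Psmd2, all of the 19S cap or its assembly, were the 5 that rose, by 0.99, 0.64, 0.68, 0.52 and 0.36. Psmd2 (0.23 to 0.43 over the alternatives) lost the call without the filter or the block, among cells of 2000 to 8000 UMIs and by total UMIs. It also lost it without LysoDCs or DN cells of either dataset. Psmc1 (0.36 to 0.62) lost it without the block, among cells of 2000 to 8000 UMIs and without LysoDCs or DN cells of dataset 1. Psmd1 (0.40 to 0.84) lost it among those cells and without LysoDCs of dataset 1. Those that fell were Psma7, Psma4 (-0.53, adjusted p = 0.0129), Psmd8 (-0.54, adjusted p = 0.0187), Psmg3, Psme2b and Psme1. Psmg3 (-0.75 to -0.40) lost the call by DESeq2, without the block, among cells of 2000 to 8000 UMIs and under each other way of calling hashtags. It also lost it without LysoDCs of either dataset or DN cells of dataset 1. Psme1 (-0.60 to -0.31) lost it without the block and without LysoDCs of either dataset or DN cells of dataset 2. Psma4 and Psmd8 lost it without LysoDCs or DN cells of dataset 2. Psme1 was at 308.7 and 334 CPM in LysoDCs against 432 and 481 CPM in DN cells (-0.45 ± 0.15, adjusted p = 0.0318). Psmb8 was at 571 and 548 against 670 and 668 CPM, below in both datasets, and did not pass (-0.20 ± 0.17, adjusted p = 0.348). Partner genes numbered 7 higher, led by Nfe2l1 (1.54, adjusted p = 3.46e-06), and 3 lower, and of the class I genes Tapbp (1.04), B2m (1.17), Nlrc5 (1.23) and Irf8 (1.67) rose. Among cells of 2000 to 8000 UMIs 2 members rose. Without LysoDCs of dataset 1 2 rose and without DN cells of dataset 1 3, while without LysoDCs or DN cells of dataset 2 2 and 3 fell.

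The balance of immunoproteasome and constitutive catalytic genes was read as the UMIs of Psmb8, Psmb9 and Psmb10 among those of Psmb5 to Psmb10, from kits that capture the 3′ end of an RNA. Capture can differ between genes, so the share was compared between populations only. DN cells had the highest share, 68.3% (95% Clopper-Pearson interval 67.4 to 69.1) in dataset 1 and 71.0% (70.5 to 71.4) in dataset 2. CD43+ monocytes had the lowest, 61.2% (59.5 to 62.9) and 57.6% (55.7 to 59.5). Ly6C+ monocytes were between them in both datasets, at 64.8% and 65.9%. LysoDCs, at 63.6% and 68.8%, were below Ly6C+ monocytes in dataset 1 and above them in dataset 2. These intervals cover counting error only.

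CD43+ monocytes minus the mean of the other populations gave -7.68 points (59.4% against 67.1%, n = 2). An exact two-sided permutation of population labels within datasets gave p = 0.0625, the smallest that its 16 arrangements allow, and 0.25 after adjustment over the 4 populations. DN cells were 5.97 points above (exact permutation p = 0.1875, adjusted 0.375), LysoDCs 1.42 points above (p = 0.75) and Ly6C+ monocytes 0.30 points above (p = 0.9375) in the same exact test. The permutation within datasets cannot reach a p under 0.05. Without dataset 1 the CD43+ difference was -10.97 points and without dataset 2 -4.40 points. Psmb8 over Psmb5 had the same order as the share in each dataset, at 2.87 and 3.58 in DN cells, 2.16 and 2.32 in Ly6C+ monocytes, 1.84 and 2.60 in LysoDCs and 1.67 and 1.48 in CD43+ monocytes. Psmb10 over Psmb7 was not highest in DN cells, at 3.14 and 2.84, with 3.54 and 3.11 in Ly6C+ monocytes and 3.38 and 3.53 in LysoDCs. Psmb9 over Psmb6 was at 0.897 and 0.982 in DN cells, below LysoDCs at 0.935 and 1.01, and in dataset 1 it was higher in CD43+ (0.875) than in Ly6C+ monocytes (0.791). The order of the share was thus that of Psmb8 over Psmb5 and not that of the other pairs.

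**Figure D4:**
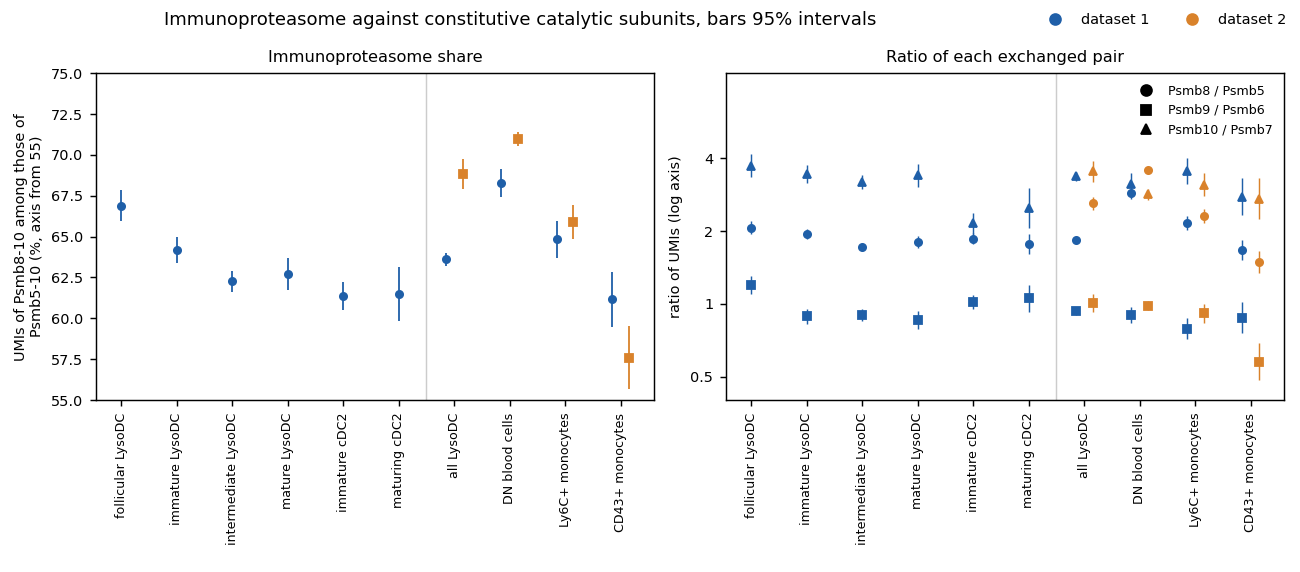
Left, share of Psmb8 to Psmb10 among the UMIs of Psmb5 to Psmb10 (percent, axis from 55), and right, UMI ratio of each exchanged pair (log axis), by population, with 95% intervals; blue is dataset 1 and orange dataset 2. DN cells are highest (68.3% and 71.0%) and CD43+ monocytes lowest (61.2% and 57.6%) among the populations measured in both datasets.

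The LysoDC gates of dataset 1, each 1 sample without a replicate, differed little. Summed over all members, the follicular gate was at 5797 CPM, the immature at 6213 CPM, the intermediate at 6338 CPM and the mature at 6228 CPM. Mature over follicular gave 1.07 (95% interval 1.06 to 1.09), and the follicular gate was the lowest of the 4 for 32 of 47 members. How many of all genes were lowest in that gate was not counted. The follicular gate also had the lowest median depth, 10551 UMIs, whose part was not tested. Between the highest and the lowest gate, 1 of 47 members passed 1.5-fold, Psmg1 at 6.75 to 10.6 CPM, against 17.2% of 8538 genes.

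The alpha ring genes were higher in the mature than in the follicular gate (1.17, 1.13 to 1.21), as were the constitutive catalytic genes (1.15, 1.10 to 1.21), while the sum of the immunoproteasome genes was at 0.961 (0.927 to 0.996). Within that sum Psmb9 was at 0.855, Psmb10 at 0.938 and Psmb8 at 1.01, and the sum turned to 1.06 among cells of 2000 to 8000 UMIs. Among members of at least 100 CPM the widest were Psmd11, a lid subunit, from 80.8 CPM in follicular to 106 CPM in mature LysoDCs (1.31-fold), and the alpha subunits Psma6, Psma3 and Psma4 (1.28-fold each). Psmb5 went from 270 CPM in follicular to 333 CPM in intermediate LysoDCs. Psmb9 was highest in follicular LysoDCs, at 186 against 159 CPM in mature ones, while Psmb8 stayed at 559 to 582 CPM. The highest gate exceeded the lowest 1.23-fold for Psmb6, 1.17-fold for Psmb7, 1.09-fold for Psmb10 and Psme2, 1.05-fold for Psme1, 1.20-fold for Psme3, 1.15-fold for Psme4 and 1.08-fold for Psmf1. The immunoproteasome share was 66.9%, 64.2%, 62.3% and 62.7% from follicular through immature and intermediate to mature LysoDCs. In dataset 2, where the hashtags split LysoDCs without regard to gate, 3 hashtags gave 68.1% to 70.2%.

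Proteasome genes made up a larger share of the UMIs in cDC2s than in the immature LysoDCs of the same sort. These are not amounts per cell, as median depth was 7387.5 UMIs in immature cDC2s and 13652 in immature LysoDCs. LysoDC markers summed to 10348 CPM in immature cDC2s and 65450 CPM in immature LysoDCs, and their part in this difference was not tested. All members summed to 1.16 times the level in immature cDC2s (1.14 to 1.17), the activators to 1.35 times (1.297 to 1.40), and 39 of 47 members were higher, as were 61.1% of all genes. Past 1.5-fold were 3 members, against 42.4% of all genes: Psmd8 at 221 against 137 CPM (1.62-fold), Psme1 at 475 CPM (1.54-fold), and Psmb10, which was lower at 165 against 255 CPM. Psmb9 was at 235 against 164 CPM, so these genes differed in direction, and the immunoproteasome sum was close to 1 (1.004, 0.973 to 1.04). Psmb10 over Psmb7 was 2.15 in immature cDC2s and 3.44 in immature LysoDCs, while Psmb9 over Psmb6 was 1.02 and 0.888. Of the 4 epithelial markers, Epcam was at 386 CPM in immature cDC2s and 1.71 CPM in immature LysoDCs, while Krt8, Krt18 and Cdh1 were at 0.808 to 9.29 CPM in immature cDC2s. Their part in these values was not tested.

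Maturing cDC2s differed from immature ones past 1.5-fold in 1 of 47 members, against 13.8% of all genes, Psme4 at 48.0 against 30.4 CPM. Psme2 was at 377 against 296 CPM and Psme1 at 518 against 475 CPM, and the activators together were at 1.17 times (1.11 to 1.23). The catalytic genes were close to 1, at 1.03 (0.980 to 1.08) for the immunoproteasome and 1.02 (0.963 to 1.09) for the constitutive subunits.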

How the data were processed

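Gene and hashtag UMIs of single cells were measured by 10x Chromium 3′ sequencing in 2 datasets, each a pool of mice. The deposited values are raw UMI counts per gene and barcode, made by the authors with Cell Ranger 6.0.1 per the file headers, while the submitters' processing notes name Cell Ranger 2.0.0 and mm10. Cells were assigned by HTODemux of Seurat 5.3.0 (quantile 0.99, seed 42), giving 8343 singlets, 2422 doublets and 1113 negatives of 11878 barcodes in dataset 1 and 8516, 4572 and 23 of 13111 in dataset 2. Doublets within a hashtag remain. Cells were kept from 1000 UMIs and 500 genes upward, if mitochondrial transcripts made up 10% or less.

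Counts were summed per population and dataset and tested over 11458 genes with edgeR 4.0.16 (TMM, quasi-likelihood, Benjamini-Hochberg adjustment, R 4.3.3, 3 residual degrees of freedom), on LysoDCs, Ly6C+, CD43+ and DN cells. Dataset was a block because each dataset is its own mice and tagging. The 49 tested members exclude Psmb11. Shares used an exact permutation within datasets (scipy 1.17.1), and intervals (Poisson, Clopper-Pearson) cover counting error only. Scripts were tested on simulated data.

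Named in each comparison were Psmb5 to Psmb10, Psme1 to Psme4, Psmf1 and up to 3 members per role and direction with the lowest adjusted p, and of partner and class I genes the 4 lowest per direction. A few others are named because a sentence counts them. Members and lists were chosen with earlier results of these data known. Alternatives were RLE scaling, DESeq2 1.42.0, no filter, no block, quantile 0.999, cells of 2000 to 8000 UMIs and leaving out each sum. A 5% mitochondrial limit was applied only to the gate comparisons of dataset 1. K-means hashtag calls, the dominant hashtag and total-UMI scaling were added after seeing the data. Dataset 2 hashtags split LysoDCs without marking gates, so gates were compared in dataset 1 only. Results for 2 genes of the partner and class I lists, and a marker sum holding 1 of them, are not reported here.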

Additional observations from a re-analysis of the deposited data

How the results depend on the processing

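A pair of pools per population and shallow blood cells limit these results. Without the replicate block for dataset, the members higher numbered 8 in LysoDCs against monocytes, 9 in DN cells against CD43+ monocytes and 3 in LysoDCs against DN cells. The CD43+ share difference stayed at -7.68 points, with an exact permutation p of 0.0357 over unrestricted labels. Among cells of 2000 to 8000 UMIs, LysoDCs against monocytes gave 3 higher and 8 lower, DN against Ly6C+ cells 0 and 2, and LysoDCs against DN cells 2 higher. Total-UMI scaling gave 6 and 8 for LysoDCs against monocytes, 1 and 14 for CD43+ against Ly6C+ monocytes, 2 lower for DN against Ly6C+ cells and 7 higher for DN against CD43+ cells. For DN against Ly6C+ cells, RLE scaling gave 1 lower, DESeq2 0 higher and 2 lower, and the dominant hashtag 0 higher and 1 lower, with 1 lower for DN against CD43+ cells. Leaving out 1 sum at a time gave 4 to 15 higher for LysoDCs against monocytes, 2 to 6 higher and 2 to 5 lower for LysoDCs against DN cells, 4 to 23 lower for CD43+ against Ly6C+ monocytes, 0 to 2 higher for DN against Ly6C+ cells, and 3 to 13 higher and 0 to 1 lower for DN against CD43+ cells. The CD43+ share difference was -10.97 to -4.40 points when 1 dataset was left out. The LysoDC share difference was -1.16 to 3.99 points, and reversed without dataset 2. Among cells of 2000 to 8000 UMIs, mature over follicular LysoDCs gave 1.21 for all members, 1.31 for constitutive and 1.06 for immunoproteasome genes, the last reversed, and immature cDC2s over LysoDCs gave 1.29, 1.33 and 1.12. A 5% mitochondrial limit gave 1.06 for all members in mature over follicular LysoDCs, and the dominant hashtag 1.14 in cDC2s over LysoDCs. The causes were not tested. For single genes, 646 values kept direction and side of the threshold, 203 kept direction only and 0 reversed.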
